A study of Rattus norvegicus with 4 samples.

Results

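Conventional dendritic cells of type 2 (cDC2) take up antigen and present it on MHC class II molecules, mainly to CD4 T cells. They depend on the growth factor receptor Flt3, carry Sirpa and use the transcription factor Irf4, whereas type 1 cells (cDC1) carry Clec9a and Xcr1, use Irf8 and Batf3 and are specialised in presenting antigen to CD8 T cells. On maturation, dendritic cells raise costimulatory ligands such as Cd40, Cd80 and Cd86, gain Ccr7, the receptor that guides them to lymph nodes, and Fscn1, an actin-bundling protein of their long processes, and turn antigen uptake down. The liver holds such cells around its portal tracts and sinusoids, and they travel with the organ when it is transplanted.

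The cells described here were chosen by their transcripts in single-cell RNA sequencing of Lewis rat liver. They were Flt3-positive cells with abundant Cd74, the MHC class II invariant chain. They had no transcript of 7 genes that mark cDC1, plasmacytoid, B, T, Kupffer or sinusoidal endothelial cells. A member had at least 1 UMI (unique molecular identifier, a counted molecule) of Flt3, at least 10 UMIs of Cd74 and 0 UMIs of Clec9a, Xcr1, Siglech, Ms4a1, Cd3e, Clec4f and Stab2. Cd79a was also to be at 0, but it is not among the features used here, so this condition had no effect. Only barcodes with 200 genes and 500 UMIs or more were considered, and those whose mitochondrial UMIs exceeded 20% were left out. Members numbered 219 of 35901 retained cells, of which 63 came from the naive, 68 from the CS, 39 from the NEVLP2 and 49 from the NEVLPcty library. Flt3, Cd74 and the genes required at 0 chose the members, and their values are given only as a description.

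All livers were of the Lewis strain, and each group is 1 library. The naive liver served as a control without preservation. The liver labelled CS was kept for 4 h at 4 °C, which the series describes as cold storage. The liver labelled NEVLP2 was perfused outside the body for 4 h at 37 °C, and the NEVLPcty liver likewise but with TGF-β and IL-10, cytokines that restrain immune activation, in the perfusate. Hydrocortisone, a glucocorticoid, was part of both perfusates, as were leukoreduced Lewis red cells, insulin, papaverine, heparin, human albumin, glutamine, pyruvate, penicillin and streptomycin in William's E medium. The reading of CS and NEVLPcty rests on the series description, the digit in NEVLP2 is not explained, and ages, sexes, the number of livers per library and the way cells were isolated are not given in the sources used here. The study was aimed at T cells resident in the liver. With 1 library per group, treatment, animal and preparation cannot be told apart, no test between groups was made, and intervals are 95% limits for counting error only. Values for the 4 libraries are given in the order naive, CS, NEVLP2 and NEVLPcty unless they are named.

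Members were deeply counted. Their median UMIs were 24145, 18032, 22949 and 18912, against 3915, 4651, 3722 and 5347 in all retained cells, and their median genes 3928, 3426, 3123 and 2904. Summed over members, the libraries held 1543789, 1234934, 888048 and 937273 UMIs, so that a count of 0 allows up to 1.94, 2.43, 3.38 and 3.20 CPM, the unit of all levels below: UMIs of a gene in all members of a library, per 1000000 UMIs of those members. Retained barcodes shared between 2 libraries numbered 7 to 32 per pair of libraries, no barcode was a member in more than 1 library, and 2 naive member barcodes also occurred among the retained cells of a perfused library.

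The rule worked on low counts of Flt3 and high counts of Cd74. A single Flt3 UMI was held by 30 of the 63 naive members, 32 of the 68 in CS, 33 of the 39 in NEVLP2 and 39 of the 49 in NEVLPcty, and 3 or more by 21, 18, 0 and 3. Median Cd74 UMIs were 895, 806.5, 1109 and 945, and the lowest member had 34, 15, 10 and 16. Just outside the Cd74 limit, 2, 3, 3 and 1 cells had Flt3 and under 10 Cd74 UMIs. Of the Flt3-positive cells with enough Cd74 (158, 348, 251 and 157), 61, 158, 162 and 40 carried Siglech, the plasmacytoid marker, and 39, 107, 54 and 58 carried Clec9a. The Kupffer cell marker Clec4f was found in 10, 112, 40 and 11 of them.

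Members carried cDC2 transcripts at levels that cDC1 of the same library did not reach, but cells without Flt3 had these transcripts as well. Sirpa, the inhibitory receptor that marks cDC2, was at 129, 119, 25.9 and 55.5 CPM in members and at 0.916, 5.09, 3.96 and 2.17 CPM in the 29, 58, 34 and 53 cDC1 of the same libraries, defined as Flt3-positive, Cd74-positive cells with a UMI of Clec9a or Xcr1 and the other genes at 0. The members of every library lay above the cDC1 of every library. Irf4 was at 35.0, 33.2, 104 and 125 CPM in members and 1.83, 3.18, 10.9 and 0 CPM in cDC1. Both genes separated the 2 cell types in every library. Cd4, the coreceptor of helper T cells, which part of rat dendritic cells also carry, was at 92.6, 91.5, 38.3 and 77.9 CPM in members and 0.916, 1.27, 0 and 0.724 CPM in cDC1. The C-type lectins of the Dcir family, Clec4a1 and Clec4a3, were at 341, 270.5, 73.2 and 25.6 CPM and 209, 106, 63.1 and 33.1 CPM in members, against at most 14.6 and 6.99 CPM in cDC1. Clec10a, a galactose-binding lectin of cDC2 and macrophages, had 842, 919.9, 2084 and 227 CPM in members and 33.0, 96.6, 458 and 50.7 CPM in cDC1. For comparison, the same libraries held 70, 120, 322 and 264 cells with 0 UMIs of Flt3, at least 100 of Cd74, at least 1 of Clec10a and the other genes of the rule at 0, a set chosen after the data had been seen. In these Flt3-negative cells Sirpa was at 256, 278, 60.0 and 49.2 CPM, Irf4 at 21.0, 21.5, 100.1 and 84.0 CPM, Cd4 at 69.0, 97.2, 34.3 and 72.8 CPM, Clec4a1 at 485, 561, 83.9 and 60.4 CPM and Clec4a3 at 307, 202, 98.3 and 53.5 CPM. The genes thus set members apart from cDC1 and not from these cells. Of 12 cDC2 markers, 10 were found in more than 10% of members in every library. Cd209a had 2 UMIs in all members and Fcer1a had 0, but with 119 and 19 UMIs in all retained cells these features were low throughout.

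**Figure D1:**
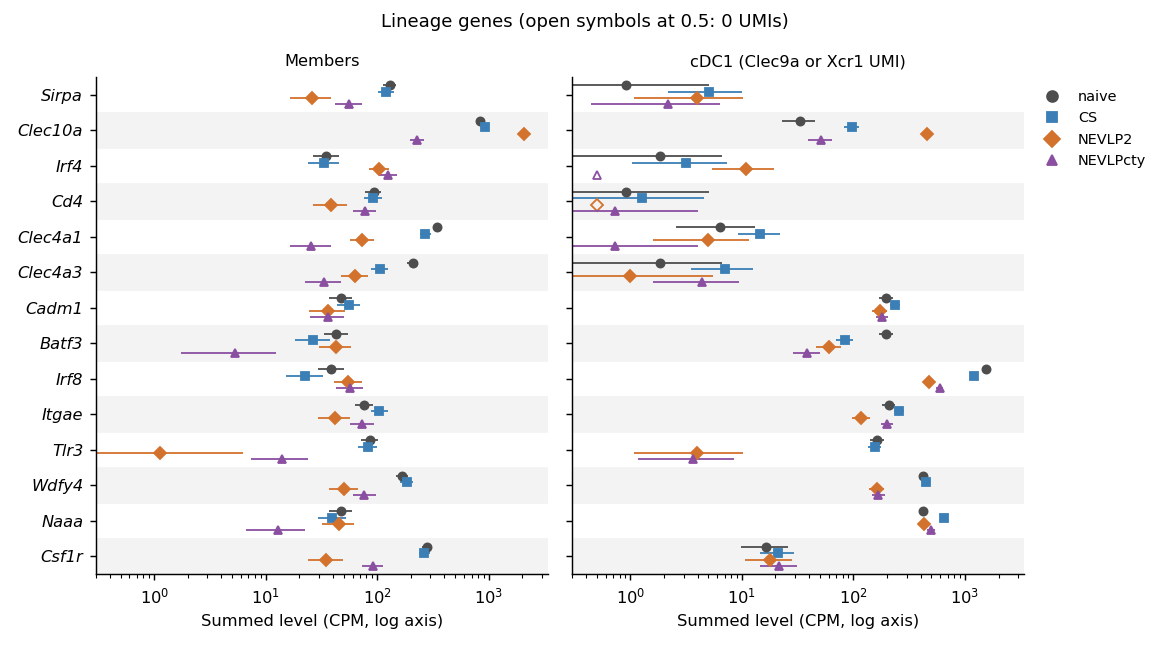
Summed level in CPM (log axis) of lineage genes in members (left) and in cDC1 of the same libraries (right), 1 symbol per library with its 95% Poisson interval and open symbols for 0 UMIs. Sirpa, Irf4, Cd4, Clec4a1, Clec4a3 and Csf1r lie to the right in members, and Irf8, Cadm1 and Naaa in cDC1.

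Markers of cDC1 that the rule had not used were lower in members but present, apart from Tlr3 in NEVLPcty, which was higher in members. Irf8, the transcription factor that cDC1 and plasmacytoid cells require, was at 38.9, 22.7, 55.2 and 56.5 CPM in members against 1557, 1205, 477 and 591 CPM in cDC1. It was found in 20.6, 20.6, 30.8 and 8.16 percent of members, and a single cell held 48.3 percent of the naive UMIs and 56.6 percent of the NEVLPcty UMIs. Cadm1, an adhesion molecule of cDC1, stood at 47.3, 55.9, 36.0 and 36.3 CPM in members and 196, 236, 172 and 180.3 CPM in cDC1. The values for Wdfy4, which cDC1 need for cross-presentation, were 166, 184, 50.7 and 76.8 CPM and 424, 443, 161 and 167 CPM. Tlr3, a sensor of double-stranded RNA, was at 85.5, 81.8, 1.13 and 13.9 CPM in members and 163, 155, 3.96 and 3.62 CPM in cDC1, low in both perfused libraries and in both cell types. Snx22 had 0 UMIs in all members and Gcsam 2. Among the plasmacytoid markers, Tcf4 was at 47.9, 44.5, 22.5 and 66.1 CPM, against 535, 645, 350.3 and 254 CPM in the 63, 111, 264 and 58 plasmacytoid cells (at least 2 Siglech UMIs), and Spib had 2, 6, 0 and 2 UMIs.

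Transcripts that members share with monocytes and macrophages were high in members, and the name of a dendritic cell rests on the rule. Csf1r, the receptor of macrophage growth factor, was at 277, 265, 34.9 and 91.8 CPM in members and 16.5, 21.0, 17.8 and 21.7 CPM in cDC1. Lyz2, which encodes lysozyme, had 4275, 4019.7, 1768 and 1569 CPM in members and 1855, 2072, 1236 and 1450.1 CPM in cDC1. The 13 measured monocyte and macrophage markers summed to 4992, 4825, 3002 and 1885 CPM, and 9, 9, 9 and 8 of them were found in more than 10% of members. Members with 0 UMIs of all of Csf1r, the complement genes C1qa, C1qb and C1qc, the B cell gene Cd79b and the T cell gene Cd3d numbered only 3, 1, 5 and 12. Kupffer cell markers were low apart from Hmox1. The 7 measured summed to 62.8, 41.3, 2616 and 2585 CPM, of which Hmox1 gave 53.8, 27.5, 2603 and 2583 CPM. Cd5l was also found in more than 10% of members in naive, CS and NEVLP2. Vsig4 had 1, 4, 0 and 0 UMIs, Marco 1, 1, 1 and 0 and Cd163 1, 1, 1 and 0. Hepatocyte markers summed to 924, 1615, 813 and 611 CPM, of which Alb gave 33.7, 176, 132 and 62.9 CPM, and stellate cell markers to at most 2.43 CPM. Some B, T and endothelial cell markers were found in more than 10% of members in every library. These were Fcmr, Fcrla and Blk, then Cd2 and Il7r, then Lyve1, Fcgr2b and Cdh5. Of the 8 B cell markers 5, 4, 5 and 5 had 0 UMIs. Of the 9 T cell markers 2, 4, 5 and 5 had 0 UMIs, and of the 9 endothelial ones 5, 2, 3 and 3.

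Clustered together, the members of the 4 libraries fell into 4 clusters that largely followed the libraries. Cluster 0 held 32, 36, 2 and 3 members, cluster 1 held 30, 30, 1 and 3, cluster 2 held 1, 2, 2 and 40, and cluster 3 held 0, 0, 34 and 3. Below, NEVLP2 members are thus mostly cells of cluster 3, NEVLPcty members of cluster 2, and naive and CS members of clusters 0 and 1. Cells that changed and other cells in their place cannot be told apart. The 10 leading genes of cluster 0 against the other members included no cDC2 marker, but Irf8, in 28.8% of its cells, Runx2, a plasmacytoid marker, in 31.5%, and Ighm, an immunoglobulin chain of B cells, in 61.6%. Members are therefore named here by the rule alone. Clusters 0 and 1 alone held enough naive and CS members to be read within a cluster, and no cluster held enough cells of both NEVLP2 and another library, with 5 in each as the minimum.

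Members made up 1.91% of the retained naive cells (1.47 to 2.44%). In CS they were 0.630% (0.489 to 0.798%), after perfusion without cytokines 0.383% (0.272 to 0.523%) and with cytokines 0.422% (0.312 to 0.557%). The naive share was the highest and its interval did not meet the others, whereas the intervals of NEVLP2 and NEVLPcty overlapped widely. Of cells with a UMI of Ptprc, which encodes the leukocyte antigen CD45, members were 4.12% (3.18 to 5.24%), 2.24% (1.74 to 2.84%), 1.15% (0.818 to 1.57%) and 2.36% (1.75 to 3.12%). On this scale NEVLP2 was the lowest library, and CS and NEVLPcty overlapped. When every retained cell was thinned to 2000 UMIs before the rule, with at least 4 Cd74 UMIs, the shares were 1.04, 0.283, 0.227 and 0.137%. Naive was thus highest under each denominator and depth, and the order of the other libraries was not stable. With at least 2 Flt3 UMIs, the shares were 1.00, 0.333, 0.0589 and 0.0861%. The summed Flt3 level in members, which the rule used, was 90.0, 109, 50.7 and 67.2 CPM. A share can differ because there are fewer cells or because the gene that chooses them is lower in each cell, and these cannot be told apart here.

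**Figure D2:**
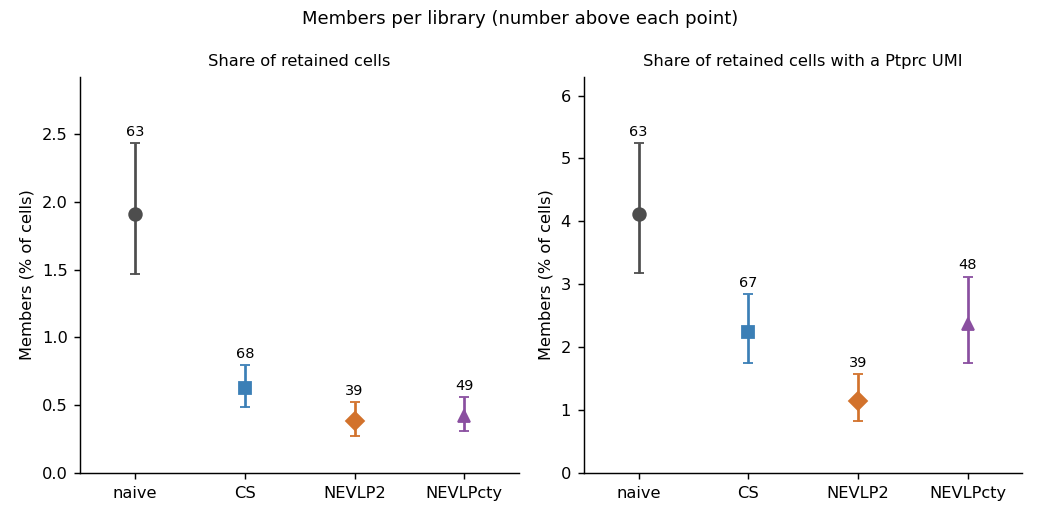
Members as a percent of retained cells (left) and of retained cells with a Ptprc UMI (right) in the 4 libraries, with exact 95% binomial intervals and the number of members above each point. Naive lies highest in both panels, and NEVLPcty lies beside NEVLP2 on the left and beside CS on the right.

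Ccr7 and Fscn1 were almost absent from the members of every library. Ccr7 had 1 UMI in 1 of 63 naive members (1.59%, 0.0402 to 8.53%) and 0 in the 68 CS, 39 NEVLP2 and 49 NEVLPcty members. A count of 0 allows a share of cells with a Ccr7 UMI of up to 4.41, 7.69 and 6.12% in these 3 libraries (3 cells of the total), which sets no limit on the cells that express the gene. Fscn1 had 1 UMI in 1 naive member and in 1 NEVLPcty member (2.04%, 0.0517 to 10.9%) and 0 elsewhere. After thinning to 2000 UMIs, which left out 0, 2, 1 and 1 members, 1 naive member had Ccr7, 1 NEVLPcty member had Fscn1, and all other values were 0. For comparison, endothelial reference cells with median depths of 6036, 6401 and 6398 UMIs had a Fscn1 UMI in 4.48% (3.45 to 5.71%) in CS, 4.62% (2.41 to 7.92%) in NEVLP2 and 8.29% (7.09 to 9.62%) in NEVLPcty. Hepatocyte reference cells, with median depths of 1200 to 2603 UMIs, had 0 UMIs of both genes in 413, 284, 235 and 176 cells. Ccr7 had 0 UMIs in the 24, 1383, 260 and 1906 endothelial cells, as had Fscn1 in the 24 naive ones. Of the single UMIs in members, only the NEVLPcty share of Fscn1 can thus be set beside an endothelial share above 0. Its interval included the endothelial share. After thinning to 2000 UMIs the 2 shares were 2.08% (0.0527 to 11.1%) and 3.04% (2.31 to 3.92%), so their order is not resolved. Single UMIs are not read as expression here. No difference between libraries was detectable at this number of cells.

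Cells with both maturation genes were in the libraries, but none of them met the rule. Retained cells with a UMI of both Ccr7 and Fscn1 numbered 6, 19, 23 and 15, or 0.182, 0.176, 0.226 and 0.129% of cells, and all 63 had at least 10 Cd74 UMIs. Not one of the 63 had a Flt3 UMI. For the 36 of them that met all the conditions at 0, the Flt3 condition alone kept them out. They carried some other genes of mature dendritic cells at levels that members did not reach, but not all. Cd86, for one, was found in 3 of the 6 naive and 6 of the 19 CS cells, but in 22 of the 23 NEVLP2 and 12 of the 15 NEVLPcty cells. Its median level in members was above 0 in every library. Cacnb3, a calcium channel subunit of mature dendritic cells, was found in 6, 18, 21 and 15 of them and had 4, 0, 1 and 3 UMIs in all members of the same libraries. Socs2, a feedback inhibitor of cytokine signalling, had 56, 117, 88 and 29 UMIs in them and 15, 6, 10 and 1 in all members, and Cd200, an inhibitory surface ligand, 12, 101, 139 and 47 against 0, 4, 2 and 0. Il12b, which encodes the shared subunit of IL-12 and IL-23, had 1863 UMIs in these 63 cells, of 3466 in all retained cells, and 0 in the 219 members. Ccr7 and Fscn1 in members are thus read only in cells with a Flt3 transcript.

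Costimulatory ligands and other maturation genes were nevertheless much higher in the members of the perfused libraries. Cd40, which receives help from T cells, was at 44.0, 68.0, 552 and 267 CPM, and it was found in 55.6, 51.5, 87.2 and 85.7 percent of members (9.52, 12.1, 55.3 and 33.3 percent after thinning). Cd80 and Cd86, the ligands of CD28, were at 13.6, 38.9, 267 and 135 CPM and 81.6, 86.6, 553 and 297 CPM. Cd274, which encodes the inhibitory ligand PD-L1, was at 4.53, 4.86, 370.5 and 144 CPM and was found in 9.52, 2.94, 87.2 and 67.3 percent of members (1.59, 0, 50 and 31.2 percent after thinning). For all 4 genes the naive and CS libraries were low, NEVLPcty lay in between and NEVLP2 was highest. Il4i1, an amino acid oxidase of activated antigen-presenting cells, had 15.5, 42.1, 327 and 119 CPM, and Marcksl1, an actin regulator raised in mature dendritic cells, 49.2, 61.5, 314 and 174 CPM. Ccl22, a chemokine that draws regulatory T cells, was at 12.3, 63.2, 429 and 122 CPM. A single cell held 94.9 percent of the CS UMIs of Ccl22 and 52.6 percent of the naive UMIs. Ccl17, a chemokine with the same receptor, was at 113, 151, 341 and 411 CPM, with 83.9 percent of the CS UMIs in a single cell. The median member had 34.3, 33.5, 506 and 226 CPM of Cd40 and 57.3, 55.4, 309.9 and 207 CPM of Cd86. Cd40 and Cd86 were thus spread over most members of the perfused libraries. Cd83, a surface marker of mature cells, differed less, with 343, 412, 619 and 587 CPM. Lamp3, Ccl19 and Ido1 had 0 UMIs in members, which says nothing of them, since all retained cells together held 27, 243 and 1, and Lamp3 and Ccl19 had 0 in the cells with Ccr7 and Fscn1.

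**Figure D3:**
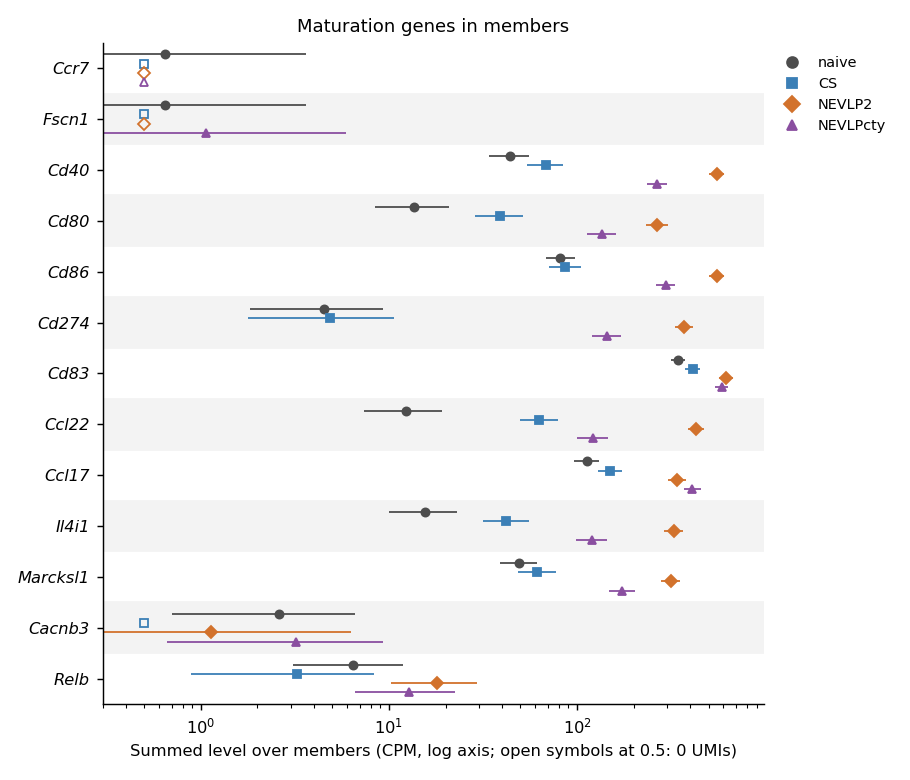
Summed level in CPM (log axis) of maturation genes in members, 1 symbol per library with its 95% Poisson interval and open symbols for 0 UMIs. Ccr7, Fscn1 and Cacnb3 stay near the level of a single UMI in every library, while Cd40, Cd80, Cd86, Cd274, Ccl22, Il4i1 and Marcksl1 are highest in NEVLP2 and next highest in NEVLPcty.

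The comparison of CS with naive members asks what 4 h of cold storage leaves in these cells. Of 7222 genes with at least 20 counts in both libraries together, 206 were at least 2-fold higher in CS (2.85%) and 247 at least 2-fold lower (3.42%), and the median log2 ratio of all genes was 0.02. The gene lists below were chosen with earlier results of these data known and share some genes, such as Cd40 and Ccl22. In the maturation list 4 of 14 genes were at least 2-fold higher and 0 lower, with a median log2 ratio of 0.37, one of them Ccl22 with its single strong CS cell. Cd80 was 2.86-fold higher (1.68 to 5.02) and Il4i1 2.71-fold higher (1.64 to 4.59), where parentheses hold the 95% counting interval. Of the immediate early genes, which stimulation or handling induces within minutes, 5 of 18 were at least 2-fold higher and 1 lower. Nr4a1, an orphan nuclear receptor, was at 93.9, 257, 22.5 and 112 CPM, its relative Nr4a3 at 59.6, 155, 615 and 688 CPM, and Fos, a subunit of AP-1, at 396, 839, 316 and 383 CPM.

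Glucocorticoid-inducible genes were read as a list because the labels name hydrocortisone as part of both perfusates. Of 10 measured, 3 were at least 2-fold higher in CS than in naive and 1 lower. Errfi1, a feedback inhibitor of growth factor receptors, was at 22.7, 197, 38.3 and 269.9 CPM and 8.68-fold higher (6.07 to 12.8) in CS than in naive. Ddit4, which restrains mTOR, was 4.14-fold higher (2.77 to 6.36). Against CS, NEVLP2 held 3 of these genes at least 2-fold higher and 4 lower, where 12.7% and 29.7% of all genes were. Against naive it held 5 higher and 2 lower, where 12.7% and 31.8% of all genes were. The list's median log2 ratios were 0.17 and 0.94, beside -0.37 and -0.41 over all genes. Tsc22d3, the glucocorticoid-induced leucine zipper, was at 165, 259, 101 and 76.8 CPM and Fkbp5, a cochaperone of the receptor, at 13.6, 33.2, 6.76 and 25.6 CPM, both lower in NEVLP2 than in CS. Cebpd, a transcription factor of the acute phase, was the reverse, at 29.8, 54.3, 172 and 88.6 CPM. Against CS the list thus had no single direction after perfusion, while against naive more of its genes were higher than lower.

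Interferon-inducible genes were in part higher in CS members, with 8 of 23 at least 2-fold higher, 2 lower and a median log2 ratio of 0.27. Isg15, a ubiquitin-like protein, was at 49.2, 113, 85.6 and 29.9 CPM, Mx1, an antiviral GTPase, at 57.7, 117, 5.63 and 2.13 CPM, and Irf1, a transcription factor of the interferon response, at 34.3, 92.3, 111 and 32.0 CPM. Irf1 was 2.69-fold higher (1.92 to 3.80) in CS than in naive members. With at least 2 Flt3 UMIs (33 naive and 36 CS members) the log2 ratio of Mx1 turned to -0.17. Ifit3 was lower in CS, but all of its naive UMIs came from 1 cell. The chemokine list held 2 genes higher and 7 lower of 14, and its median log2 ratio was -1.20. Ccl3, a chemokine of inflammation, was 3.13-fold lower (2.25 to 4.43) and Cxcl2, which draws neutrophils, 3.02-fold lower (2.61 to 3.50). Single cells weighed on this list: 90.7 percent of the naive Ccl5 UMIs, 73.1 percent of the naive Ccl4 UMIs and 92.4 percent of the CS Ccl2 UMIs came from 1 cell each. With at least 2 Flt3 UMIs the log2 ratio of Cxcl2 turned to 0.34 and that of Ccl2 to -1.74. Within cluster 0 (32 naive and 36 CS members) Ccl2 turned to -0.55 and Ccl4 to 1.48, and 209 genes were at least 2-fold higher and 272 lower of 5908 tested.

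Outside the lists, 6 of the 10 genes with the largest ratios in CS are made in quantity by hepatocytes. Car3, a carbonic anhydrase, was 9.47-fold higher (4.29 to 24.7), Apoe, an apolipoprotein of hepatocytes and macrophages, 4.83-fold higher (3.47 to 6.87), Fabp1, a fatty acid carrier, 4.73-fold higher (3.35 to 6.82), and Gc, the vitamin D binding protein, 4.00-fold higher (2.39 to 6.98). Apoc3 and Rbp4, which carry lipid and retinol in plasma, lay between Gc and Apoe. The summed hepatocyte markers were 1615 CPM in CS and 924 CPM in naive members, and their part in these ratios was not tested. A single CS cell held 18.2 to 35.6 percent of the CS UMIs of each of the 6 genes. After thinning, Apoc3, Car3 and Rbp4 were found in 15.9, 3.17 and 3.17 percent of naive and 6.06, 3.03 and 3.03 percent of CS members. For Apoe, Fabp1 and Gc it was 7.94, 3.17 and 1.59 percent of naive and 15.2, 16.7 and 7.58 percent of CS members. Nfkbid, an atypical inhibitor of NF-kB, was 4.62-fold higher (2.89 to 7.68). Among the 10 lowest ratios were small mitochondrial proteins, namely Tomm7 and Tomm6 of the import pore, Ndufb4 and Uqcr10 of the respiratory chain and Atp5me of the ATP synthase. Tomm7 was 2.59-fold lower (2.22 to 3.04) and Uqcr10 2.43-fold lower (2.02 to 2.93). Clec4a, another lectin of the Dcir family, was at 29.1 CPM in naive and 4.86 CPM in CS members, 6.0-fold lower (2.55 to 17.2). In the cell cycle list 6 of 16 genes were at least 2-fold lower, but Mki67 was found in 7.94, 7.35, 15.4 and 16.3 percent of members and a single cell held 64.9 and 83.3 percent of its naive and CS UMIs. Without conditions on Clec4f and Stab2, a setting added after seeing the data that gave 101 in place of 68 CS members, 344 genes were at least 2-fold higher in CS, in place of 206.

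The comparison of NEVLP2 with CS and with naive members asks what 4 h of warm perfusion leaves in these cells. The 2 comparisons share the NEVLP2 library, which also serves the comparison with NEVLPcty. Against CS, 12.7% of 6362 genes were at least 2-fold higher and 29.7% at least 2-fold lower, and against naive 12.7% of 6736 higher and 31.8% lower. The median log2 ratio of all genes was -0.37 and -0.41. Scaling by the median of ratios removed this shift and gave 1229 genes higher and 1384 lower against CS, in place of 811 and 1889, and 1301 and 1587 against naive, in place of 858 and 2142. The directions given below for genes and lists in NEVLP2 were the same under both scalings, unless stated.

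Maturation genes were higher in NEVLP2, with 11 of 15 genes at least 2-fold higher than in CS and 12 of 15 than in naive. None was at least 2-fold lower, and the median log2 ratios were 2.48 and 2.67. Cd274 was 76.3-fold higher (34.7 to 209) than in CS, and Cd40 8.11-fold higher (6.42 to 10.4). Cd80 was 6.87-fold higher (5.02 to 9.57) than in CS and 19.6-fold higher (12.5 to 32.3) than in naive. Cd86 was 6.38-fold higher (5.17 to 7.94) than in CS. Samsn1, an adaptor that restrains signalling, was at 16.8, 9.72, 110.4 and 28.8 CPM and 11.4-fold higher (6.22 to 22.7). In the list of costimulation and checkpoint ligands 7 of 13 genes were at least 2-fold higher than in CS and 2 lower. Of all genes 12.7% and 29.7% were. The 2 lower ligands were Vsir and Lgals9. Vsir, which encodes the inhibitory ligand VISTA, was at 90.0, 106, 10.1 and 14.9 CPM and 10.5-fold lower (5.35 to 23.4), and Lgals9, galectin-9, at 120.5, 129.6, 16.9 and 21.3 CPM and 7.67-fold lower (4.51 to 14.0).

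Chemokines were higher in NEVLP2 too, with 14 of 15 at least 2-fold higher in NEVLP2 than in CS and a median log2 ratio of 2.94. Against naive it was 11 of 16, with 2.78. Ccl3 and Ccl4, related chemokines of inflammation, were at 117, 37.2, 1807 and 616 CPM and 50.5, 14.6, 989.8 and 321 CPM. In NEVLP2 Ccl3 was found in 82.1 percent and Ccl4 in 92.3 percent of members. Cxcl11, an interferon-inducible ligand of Cxcr3, had 0 UMIs in naive, CS and NEVLPcty members and 394 CPM in NEVLP2, where 48.7 percent of members had it. It was at least 162-fold higher than in CS. The other chemokines of the list were less extreme. Cxcl2 was at 577, 191, 1299 and 918 CPM, and Ccl9 at 7.13, 10.5, 108 and 8.54 CPM.

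Among the cytokines, 5 of 9 genes were at least 2-fold higher in NEVLP2 than in CS and 3 lower. Of all genes 12.7% and 29.7% were, so that the count of lower genes lies near the background. Il1b, the inflammatory cytokine IL-1β, was at 286, 444, 1939 and 3808 CPM, and Il1rn, which encodes the antagonist of its receptor, at 16.2, 20.2, 727 and 84.3 CPM. The antagonist thus stood 35.9-fold higher (24.1 to 55.9) than in CS and the cytokine 4.37-fold higher (3.97 to 4.82). Ebi3, a subunit of IL-27 and IL-35, was at 12.3, 8.10, 266 and 112 CPM, and Osm, oncostatin M, at 26.6, 37.2, 321 and 239 CPM. Il16, a chemoattractant for CD4 cells, was at 77.7 and 72.9 CPM in naive and CS and had 0 UMIs in NEVLP2, at least 21.6-fold lower than in CS. Il18 was 2.31-fold lower (1.71 to 3.15). Il6, Il12a, Il12b and Ifnb1 had 0 UMIs in all members, although Il6 had 2064 UMIs in all retained NEVLP2 cells, and Il10 had 1 UMI.

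**Figure D4:**
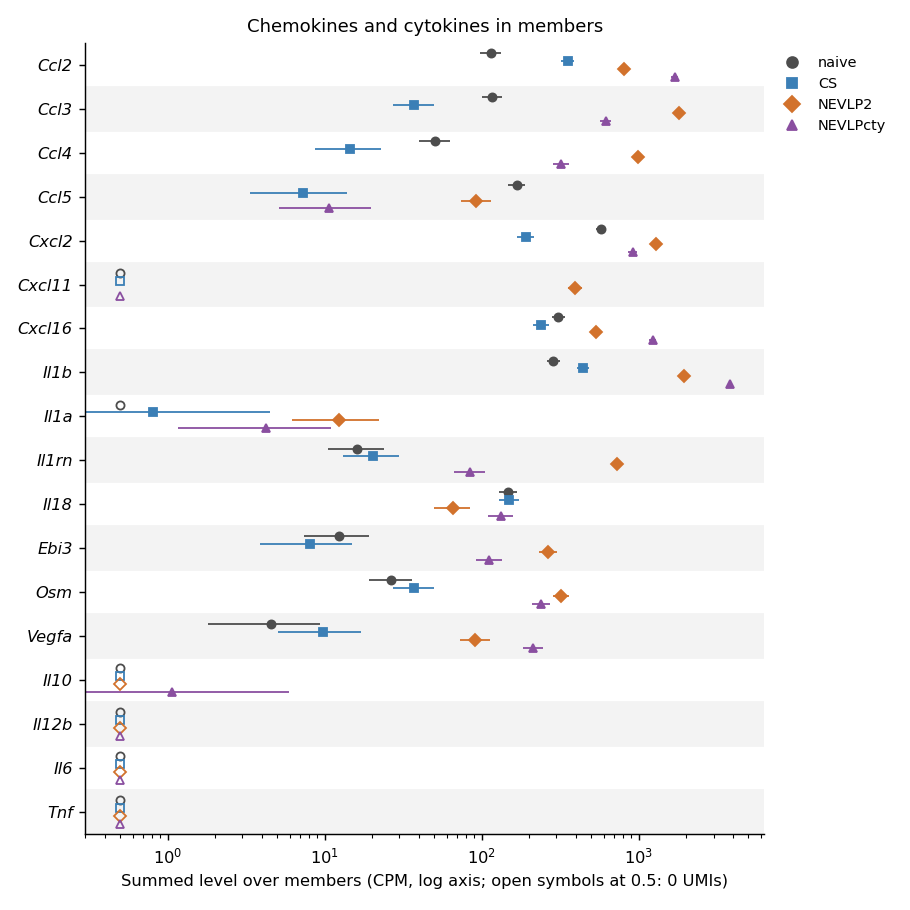
Summed level in CPM (log axis) of chemokines and cytokines in members, 1 symbol per library with its 95% Poisson interval and open symbols for 0 UMIs. Ccl3, Ccl4, Il1rn, Ebi3 and Osm are highest in NEVLP2, Ccl2, Cxcl16, Il1b and Vegfa in NEVLPcty, and Cxcl11 appears in NEVLP2 alone. Tnf, drawn at 0, had 2 UMIs in all retained cells.

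Genes downstream of NF-kB, the transcription factor that drives maturation, were at least 2-fold higher in 12 of 20 cases against CS and 13 of 19 against naive, with median log2 ratios of 1.36 and 1.78 and none at least 2-fold lower. Sod2, mitochondrial superoxide dismutase, was at 56.4, 56.7, 1879 and 459 CPM, Traf1, an adaptor of TNF receptors, at 50.5, 82.6, 533 and 372 CPM, and Birc3, an inhibitor of cell death, at 18.1, 28.3, 212 and 155 CPM. Nfkb2, a subunit of NF-kB itself, was at 33.7, 34.8, 223 and 188 CPM. In the list of IL-10 and STAT3 response genes 9 of 14 were at least 2-fold higher than in CS and 11 of 14 than in naive, with none at least 2-fold lower. No IL-10 was added to the NEVLP2 perfusate. Socs1 and Socs3, feedback inhibitors of cytokine receptors, were at 9.72, 11.3, 331 and 82.2 CPM and 3.89, 2.43, 77.7 and 29.9 CPM. Stat3 was at 55.1, 61.5, 316 and 221 CPM and Etv3, a repressor that IL-10 induces, at 14.9, 14.6, 205 and 97.1 CPM.

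Interferon-inducible genes were lower in NEVLP2, with 13 of 23 at least 2-fold lower than in CS, where 29.7% of all genes were, 2 higher and a median log2 ratio of -1.03. Mx1 was 20.9-fold lower (8.73 to 65.2), and Oasl2, an antiviral synthetase relative, 10.4-fold lower (3.86 to 39.6). Cxcl10, a ligand of Cxcr3, was an exception and was 7.65-fold higher (4.29 to 14.6). Glycolytic and hypoxia-related genes were higher, with 12 of 17 at least 2-fold above naive and a median log2 ratio of 1.27. Slc2a1, a glucose transporter, was at 23.3, 21.9, 148 and 135 CPM, Aldoa, a glycolytic aldolase, at 571, 654, 1569 and 1306 CPM and Ldha, lactate dehydrogenase, at 569, 634, 1372 and 1477 CPM. Hmox1, haem oxygenase, which breaks down haem, was at 53.8, 27.5, 2603 and 2583 CPM and 94.6-fold higher (67.5 to 137) than in CS. A single cell held 84.3 percent of the naive Hmox1 UMIs. Both perfusates contained red cells, and the part of haem from them was not tested.

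Stress genes of other kinds were in part higher in NEVLP2. Of the unfolded protein and integrated stress genes 7 of 16 were at least 2-fold higher than in CS and 2 lower. Of all genes 12.7% and 29.7% were. Atf4, the central factor of the integrated stress response, was at 303, 152, 839 and 387 CPM, Herpud1, which clears misfolded proteins, at 126, 135, 519 and 299.8 CPM, and Asns, asparagine synthetase, an Atf4 target, at 17.5, 17.0, 69.8 and 8.54 CPM. Asns in NEVLPcty was below its naive level. Of the heat shock genes 5 of 11 were at least 2-fold higher than in CS and 1 lower. Among the higher ones was Dnaja1, a cochaperone, at 125, 159.5, 515 and 712 CPM. A single cell gave 38.8 percent of the NEVLPcty Dnaja1 UMIs. The cold-inducible RNA-binding proteins did not go together: Cirbp was at 47.9, 49.4, 3.38 and 11.7 CPM and Rbm3 at 623, 940.1, 1329 and 966 CPM, and neither was 2-fold apart between CS and naive.

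The genes that mark cDC2 were at least 2-fold lower in NEVLP2 for 8 of 13 measured against CS and 10 of 14 against naive. In each comparison 2 were at least 2-fold higher. Of all genes 29.7% and 31.8% were lower and 12.7% higher in each. The count of higher genes thus lies near the background. Sirpa was 4.60-fold lower (2.95 to 7.48) than in CS, Clec4a1 3.70-fold lower (2.83 to 4.90), and Cd1d1, which presents lipids, at 56.4, 59.9, 5.63 and 18.1 CPM and 10.6-fold lower (4.36 to 33.7). The genes higher were Irf4, 3.12-fold higher (2.14 to 4.63), and Clec10a, 2.27-fold higher (2.1 to 2.44). Levels of Clec10a spread widely within NEVLP2, where the lower quartile of members was 88.1 CPM, the median 900.1 CPM and the upper quartile 3857 CPM. Among the receptors for positioning in tissue, 3 of 8 were at least 2-fold lower than in CS and 1 higher, where 29.7% and 12.7% of all genes were, so that the count lies near the background. Ccr6, which binds Ccl20, was at 92.0, 117, 1.13 and 9.60 CPM and Itga4, an integrin subunit that binds Vcam1, at 199, 228, 28.2 and 72.6 CPM. Gpr183, which guides dendritic cells by oxysterols, was higher, at 54.4, 86.6, 178 and 182 CPM.

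Presentation genes of MHC class II differed little between the libraries. The chains RT1-Ba, RT1-Bb, RT1-Da and RT1-Db1 were at 14687, 14921, 17750.2 and 17627 CPM, 18925, 19191, 20756 and 20916 CPM, 21164, 24924, 34141 and 31695 CPM and 24243, 27872, 31748 and 31970.4 CPM, none at least 2-fold apart in any comparison. RT1-DOa, part of a modulator of peptide loading, was at 286, 327, 93.5 and 101 CPM and 3.50-fold lower (2.76 to 4.49). Ciita, the master regulator of these genes, was at 141, 114, 58.6 and 89.6 CPM. Of 17 genes of MHC class I and peptide loading, 1 was at least 2-fold higher in NEVLP2 than in CS and 3 were lower. Of all genes 12.7% and 29.7% were, so that both counts lie below the background. The higher gene was Tap1, the peptide transporter, at 96.5, 129, 282 and 217 CPM. Among the lower genes was Psmb8, a subunit of the immunoproteasome, at 415, 549.8, 224 and 336 CPM. The median log2 ratios of the MHC class II and class I lists against CS were -0.23 and -0.24, and they turned to 0.14 and 0.13 under median-of-ratios scaling. Cst3, cystatin C, an abundant dendritic cell product, was at 7753, 7092, 22251 and 14131 CPM.

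Outside the lists, the 10 largest ratios of NEVLP2 to naive included Slpi, a protease inhibitor of inflamed tissue, 53.8-fold higher (44.7 to 65.3), and Gadd45g, a stress-inducible regulator, 38.4-fold higher (25.9 to 59.3). A single cell held 50.2 percent of the NEVLP2 UMIs of Slpi, whose summed level there was 4040.3 CPM, while the median member had 46.0 CPM. Slamf1, a receptor of activated lymphoid and myeloid cells, had 163 UMIs in NEVLP2 and 0 in naive and CS. Against a floor of 3 counts it was at least 94.5-fold higher than in naive. Hbegf, an epidermal growth factor receptor ligand, had 159 UMIs against 2, and Cish, a cytokine feedback inhibitor, 134 against 1. Icos and Klrc3, better known from lymphocytes, were also among the largest ratios against CS. Icos had 161 UMIs against 2, and Cd3e was at 0 by the rule. The lowest ratios included Tifab, an inhibitor of innate signalling, at 1 UMI against 196 in naive, and Zfp36l2, an RNA-binding protein of quiescent cells, 14.7-fold lower (10.4 to 21.6). Pycard, the adaptor of inflammasomes, was 13.6-fold lower (9.81 to 19.5). In the TGF-β list 2 of 11 genes were at least 2-fold higher than in naive and 3 lower, where 12.7% and 31.8% of all genes were. Against CS 2 of 11 were higher and 5 lower, where 12.7% and 29.7% of all genes were. Id3 of this list, an inhibitor of basic helix-loop-helix factors, was at 326, 372, 13.5 and 156 CPM. It was 24.1-fold lower (13.7 to 47.0) than in naive.

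The comparison of NEVLPcty with NEVLP2 members asks what IL-10 and TGF-β add to the same perfusion. Of 5232 genes, 9.75% were at least 2-fold higher and 8.47% at least 2-fold lower, and the median log2 ratio of all genes was 0.04. Maturation genes were lower in NEVLPcty: 6 of 14 were at least 2-fold lower, 0 higher, and the median log2 ratio was -0.94. Cd40 was 2.07-fold lower (1.77 to 2.42), Cd274 2.57-fold lower (2.1 to 3.17) and Ccl22 3.53-fold lower (2.85 to 4.39). Il4i1 was 2.73-fold lower (2.19 to 3.43) and Samsn1 3.83-fold lower (2.48 to 6.10). Havcr2, which encodes the inhibitory receptor Tim-3, was higher, at 177, 176, 193 and 415 CPM. For all 5 lower genes NEVLPcty still lay above naive and CS in summed level, while Ccl17 did not differ by 2-fold.

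Chemokines divided. In all, 11 of 16 were at least 2-fold lower in NEVLPcty and 3 higher, with a median log2 ratio of -1.72. Cxcl11 had 350 UMIs in NEVLP2 and 0 in NEVLPcty, at least 123-fold lower. Ccl3 was 2.94-fold lower (2.67 to 3.23) and Ccl4 3.08-fold lower (2.70 to 3.52), and with 26.5 and 28.6 percent of NEVLPcty members they were found in fewer cells than in NEVLP2. A single cell gave 57.7 and 78.7 percent of their NEVLPcty UMIs. Among the 5 and 12 members with 0 UMIs of Csf1r, C1qa, C1qb, C1qc, Cd79b and Cd3d, the list's median turned to 1.71, Ccl4 to 0.17, Ebi3 to 0.21 and Pmepa1 to -0.23. Not all chemokines were lower. Ccl2, which draws monocytes, and Cxcl16, the ligand of Cxcr6, were higher, at 1702 against 806 CPM and 1227 against 536 CPM. Cxcl16 was spread over the cells, with a median of 1088 CPM in NEVLPcty and 404 CPM in NEVLP2 members.

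Of the cytokine genes, Il1rn was 8.63-fold lower (6.82 to 11) and Ebi3 2.37-fold lower (1.88 to 3.01), whereas Vegfa, a growth factor for vessels, was 2.34-fold higher (1.80 to 3.07). A single cell held 65.4 percent of the NEVLP2 UMIs of Vegfa, and with at least 2 Flt3 UMIs (6 and 10 members) its log2 ratio turned to -0.99. The median member had 3572 CPM of Il1b in NEVLPcty and 1024 CPM in NEVLP2, and Il1r2, the decoy receptor of IL-1, was at 33.0, 36.4, 72.1 and 261 CPM and 3.63-fold higher (2.74 to 4.85). Cd14, part of the sensor of bacterial lipopolysaccharide, was 10.8-fold lower (7.37 to 16.4), with single cells holding 44.4 percent of the NEVLP2 and 48.3 percent of the NEVLPcty UMIs. Sod2 was 4.10-fold lower (3.68 to 4.57), while the NF-kB list as a whole held 1 gene higher and 1 lower of 20, with a median log2 ratio of -0.15. Nfkb2, Traf1 and Birc3 were less than 2-fold lower than in NEVLP2.

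The lists of target genes of the 2 added cytokines went in different directions. In the TGF-β list 4 of 12 genes were at least 2-fold higher in NEVLPcty and 1, Tgfbi, lower. The median log2 ratio was 0.84. Id3 was 11.5-fold higher (6.40 to 22.8), Id2 2.99-fold higher (2.63 to 3.41) and Pmepa1, a feedback inhibitor of TGF-β signalling, 2.24-fold higher (1.54 to 3.31). In NEVLPcty Id3 stood below its naive level of 326 CPM, and Id2, at 1043 CPM, above its naive level of 572 CPM. In the IL-10 and STAT3 list 0 of 14 genes were at least 2-fold higher and 5 lower. Socs1 was 4.03-fold lower (3.13 to 5.25) and Socs3 2.60-fold lower (1.65 to 4.19). Il10ra, a chain of the IL-10 receptor, was low throughout, at 11, 9.72, 14.6 and 13.9 CPM, and Il10rb was at 28.5, 38.1, 28.2 and 19.2 CPM.

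Several cDC2 genes also stood apart in NEVLPcty. Clec10a was 9.17-fold lower (7.96 to 10.6) and Clec4a1 2.86-fold lower (1.77 to 4.77), while Itgam, an integrin chain of myeloid cells, was 3.59-fold higher (2.14 to 6.31) and Sirpa 2.14-fold higher (1.29 to 3.67). Cxcr4, the receptor of Cxcl12, was at 71.3, 64.0, 75.4 and 345 CPM and 4.57-fold higher (3.50 to 6.04). In the interferon list 6 of 11 genes were at least 2-fold lower and 0 higher, among them Irf1, 3.48-fold lower (2.29 to 5.43), and Isg15, 2.86-fold lower (1.84 to 4.59). With at least 2 Flt3 UMIs the log2 ratio of Irf1 turned to 0.44. Outside the lists, Slpi was 46.8-fold lower (37.5 to 59.0) in summed level, which the 1 strong NEVLP2 cell carries in large part: the upper quartiles of members were 128 CPM in NEVLPcty and 121 CPM in NEVLP2. Gpnmb, a glycoprotein of lipid-laden and injury-associated macrophages, had 1 UMI against 131, of which 43.5 percent lay in 1 cell, and Slamf1 3 against 163. C1qc, a complement gene of macrophages, was 10.1-fold lower (6.02 to 18.1), but a single cell held 66.7 percent of its NEVLP2 UMIs and another 43.8 percent of its NEVLPcty UMIs. Genes higher with the cytokines included Cd2, an adhesion molecule, 8.07-fold higher (5.61 to 12.0), Zfp36l2, 7.12-fold higher (4.94 to 10.6), and Gem, a small GTPase, 6.03-fold higher (4.53 to 8.17). Hspb1, a small heat shock protein, rests on a single cell, which held 98.8 percent of its NEVLPcty UMIs.

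**Figure D5:**
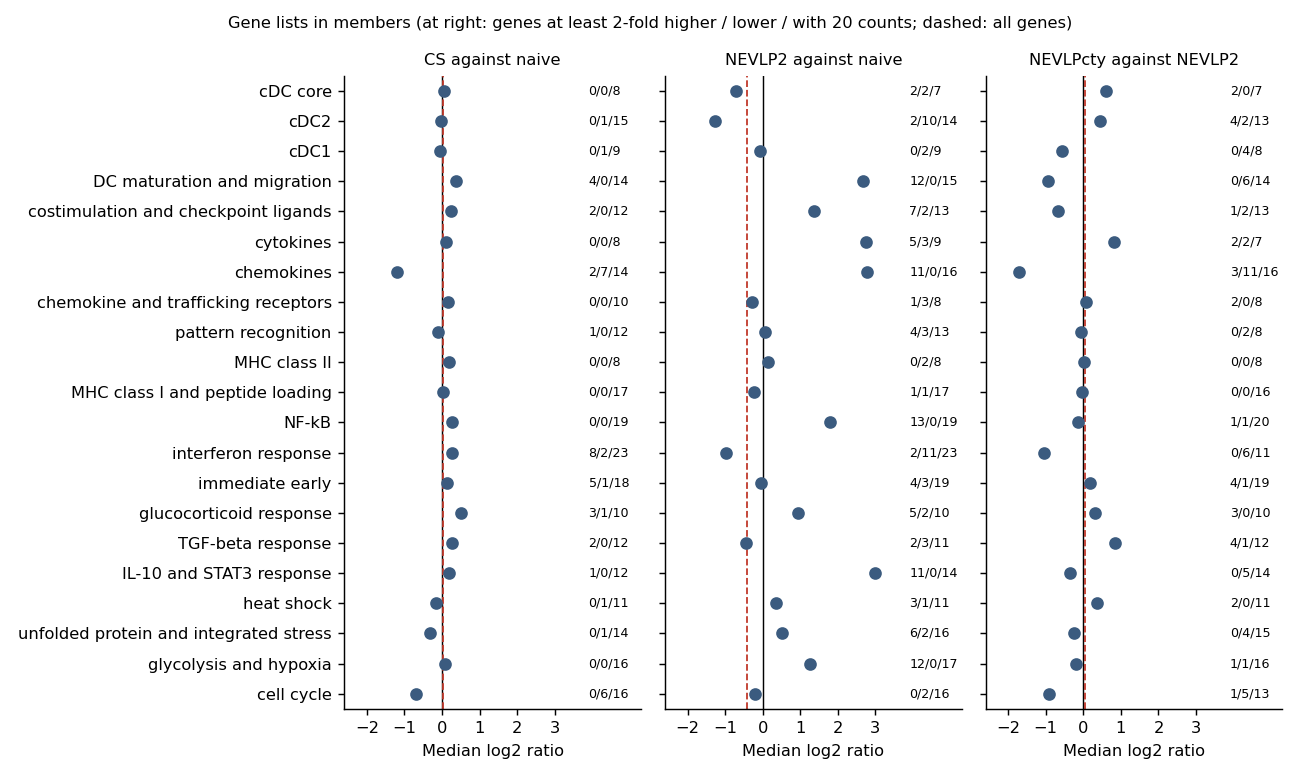
Median log2 ratio of each gene list in members for CS against naive, NEVLP2 against naive and NEVLPcty against NEVLP2 (points), beside the median of all genes (dashed line) and 0 (solid line), with the numbers of genes at least 2-fold higher, at least 2-fold lower and measured at the right. IL-10 and STAT3, chemokine, cytokine and maturation genes have the highest medians for NEVLP2 against naive, from 2.67 to 2.99, and chemokines the lowest for NEVLPcty against NEVLP2, at -1.72.

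The same lists were read in cells of the same libraries that the Flt3 condition had kept out. These were the Flt3-negative cells with Cd74 and Clec10a described above. Against CS, 17 of 22 maturation genes, 13 of 17 chemokines and 10 of 14 IL-10 and STAT3 genes were at least 2-fold higher in NEVLP2. Their median log2 ratios were 2.04, 2.47 and 2.50, beside -0.60 over all genes. NEVLPcty held 10 of 23 maturation genes and 13 of 16 chemokines at least 2-fold below NEVLP2. The medians were -0.77 and -2.48, beside 0.12 over all genes. The share of all genes at least 2-fold apart was not taken in these cells. Cd40 was at 53.5, 67.1, 396 and 238 CPM, Cd274 at 8.12, 6.98, 368 and 135 CPM and Il1b at 187, 382, 2669.9 and 4325 CPM in these cells. For these genes the 2 highest libraries were those of the members, in the same order. They differed in other respects: C1qa was at 1657, 4508, 691 and 914 CPM in them and at 136, 107, 142 and 41.6 CPM in members, and Ccl2 was highest in NEVLP2, at 204, 122, 5134 and 2482 CPM, and not in NEVLPcty. The cells come from the same libraries and are no replicate of the members.

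In cDC1 of these libraries the maturation list was at least 2-fold higher in NEVLP2 than in CS for 11 of 17 genes, and the chemokine list for 13 of 14. Of all 6547 genes measured in cDC1, 828 were at least 2-fold higher and 1576 lower. The levels of single genes were unlike those of members. Cd274 was at 0, 0, 23.8 and 5.07 CPM in cDC1 and Ccl22 at 2.75, 2.54, 28.7 and 6.52 CPM, in NEVLP2 far below the members' levels. Cd40 in NEVLP2 was higher in cDC1, at 921 CPM, than in members. Il1b was at 229, 357, 243 and 1236 CPM in cDC1. These levels rest on 1 library each, and the difference between the cell types was not tested.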

How the data were processed

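Single cells of Lewis rat liver were measured in 4 libraries by 10x Genomics sequencing. The deposited values are raw UMI counts per gene and barcode, made by the authors with Cell Ranger 2.1.1 per the submitters' processing notes, while the file headers name 6.0.0. The genome build and annotation are not given in the sources used here. The naive, CS, NEVLP2 and NEVLPcty matrices held 3920, 11200, 10646 and 11763 barcodes with 25609611, 67431270, 65893218 and 72271060 UMIs, of which 3301, 10798, 10186 and 11616 barcodes were retained.

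Counts of members were summed per library and scaled to CPM with scanpy 1.11.5, scipy 1.17.1 and numpy 2.4.6. Levels carry exact Poisson, shares exact Clopper-Pearson and ratios exact conditional binomial limits of 95%. A gene was compared with at least 20 counts in both libraries together, and a count of 0 was set to 3 counts ("at least"). Only genes at least 2-fold apart are counted. Shares of cells were also taken after thinning each cell to 2000 UMIs. Doublets were scored with Scrublet, which called 5, 339, 205 and 199 retained cells. Only 2 members were among them, and none was removed. The low naive number may be a failure of the caller. The ratio code was tested on simulated data.

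Members and gene lists were chosen with earlier results of these data known. Named genes were list genes with at least 50 counts and a 2-fold ratio, up to 8 per list, lineage and maturation genes throughout, and the 10 highest and lowest outside the lists. Il6, Il12a, Il12b, Il10, Ifnb1, Tnf, Csf1r, Lyz2, C1qa, the MHC class II chains, the IL-10 receptor genes and the less extreme examples were chosen after their values were seen. Of 387 list genes 17 were not analysed here for want of a row.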

Additional observations from a re-analysis of the deposited data

How the results depend on the processing

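Intervals and ratios cover counting error only, and no setting replaces a second library per group. No paired analysis was possible because each group has 1 library and the labels carry no replicate numbers. Depth limits what members can show: a gene at 0 UMIs may still have stood at 1.94 to 3.38 CPM. Leaving out a replicate was likewise not possible, and values matched by cluster could be given for CS against naive alone, since the cluster with most NEVLP2 members held 0 from naive and CS and 3 from NEVLPcty.

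Settings that left fewer than 5 members in a library gave no value, a limit set after seeing the data, as were the settings without conditions on Clec4f and Stab2 and without Mki67 and Top2a. Over all settings 3047 gene ratios moved by less than their counting interval, 457 by more, and 21 reversed. Of list medians 731 stayed within 0.5 on the log2 scale with the same sign and 138 moved. Another 5, of at least 1 in size, reversed, while 90 smaller ones that changed sign, such as those of MHC class II and class I, are among the moved. The naive share was the highest in the 9 settings for which a share was computed, which do not include the one without Csf1r and the 5 other genes, where 3 naive and 12 NEVLPcty members were left. Shares in the usual order of libraries were 1.00, 0.333, 0.0589 and 0.0861% with at least 2 Flt3 UMIs, 1.04, 0.283, 0.227 and 0.137% when cells were thinned before the rule, and 4.12, 2.24, 1.15 and 2.36% of cells with Ptprc. Among cells with at least 2000 UMIs they were 2.85, 0.850 and 0.574% in naive, CS and NEVLP2, and without conditions on Clec4f and Stab2 0.935% in CS. Ccr7 in naive members was 0 with at least 2 Flt3 UMIs, without the highest doublet scores and without conditions on Clec4f and Stab2. Fscn1 in NEVLPcty members was 0 when thinned to 4000 UMIs, with at least 2 Flt3 UMIs and without conditions on Clec4f and Stab2.

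With at least 100 counts, 40 genes were higher and 51 lower in CS against naive, 398 and 452 in NEVLP2 against CS, 449 and 582 in NEVLP2 against naive, and 112 and 157 in NEVLPcty against NEVLP2, fewer because fewer genes were tested. Median-of-ratios scaling gave 1229 genes higher in NEVLP2 against CS and 1301 against naive. With at least 2 Flt3 UMIs, 1158 and 1332 genes were lower in NEVLP2 against CS and naive, and 307 were higher and 234 lower in NEVLPcty against NEVLP2. Without Csf1r, C1qa, C1qb, C1qc, Cd79b and Cd3d the last pair was 250 and 186, and without conditions on Clec4f and Stab2 344 were higher in CS against naive.

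Reversed log2 ratios were, with at least 2 Flt3 UMIs, Ccl2 -1.74, Cxcl2 0.34 and Mx1 -0.17 in CS against naive, Hif1a -0.21, Ifi27 0.023, Tgif1 0.13 and Tnfsf9 -0.73 in NEVLP2 against CS, and Hif1a 0.79, Irf1 0.44, Nr4a2 -0.65, Vegfa -0.99 and the plasmacytoid list -0.23 in NEVLPcty against NEVLP2. Within the cluster with most naive members, Ccl2 was at -0.55, Ccl4 at 1.48 and Nr4a2 at -0.35 in CS against naive. Without Csf1r and the 5 other genes, the chemokine list was at 1.71, Ccl4 at 0.17, Ebi3 at 0.21 and Pmepa1 at -0.23 in NEVLPcty against NEVLP2. Without conditions on Clec4f and Stab2, Sgk1 was at 0.15 in CS against naive, Ifit3 at 0.011 in NEVLP2 against naive and Dusp2 at 0.054 in NEVLPcty against NEVLP2. With each member weighted equally, Cd4 was at -0.035 in NEVLPcty against NEVLP2 and the plasmacytoid list at 0.073 in NEVLP2 against naive. The cold-inducible list was at 0.50 and 1.09 in NEVLP2 against CS and naive with at least 100 counts, where Rbm3 alone remained. The cause of the other reversals was not tested.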
